A study of Homo sapiens with 4 samples.

Results

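Aminoacyl-tRNA synthetases are the enzymes that join each amino acid to its transfer RNA (tRNA), and 35 genes for them were followed among the 62700 genes of the count table. They were picked by gene symbol and not by a cut on any measured value, but with earlier results of these data known. Of these, 19 were cytosolic or shared, with symbols ending in 1 together with the phenylalanine subunit genes FARSA and FARSB, and 16 were mitochondrial, with symbols ending in 2. All 35 passed the filter on low counts and were among the 18973 genes tested.

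RNA came from 4 libraries of HEK293T, a human embryonic kidney line in wide laboratory use, here a stable clone whose genotype is given as CMV-V5-MITO-PRADA. The genotype names the CMV promoter, a V5 tag and a PRADA construct, the titles place the construct in the mitochondrial matrix, and the cells of both groups carried it. Per the series design text the material was labelled and then enriched, and ribosomal RNA was depleted before library preparation. Both groups were fed 100 µM 4-thiouridine (s4U), an analogue of uridine that enters new RNA, over 5 h, followed by 0.5 mM alkyne phenol with 100 µM s4U for 30 min. The labelled group (2 libraries) was then given D-amino acid at 10 mM over 30 min, which starts the labelling, whereas in the unlabelled group (2 libraries) the D-amino acid was omitted. The sample titles call the libraries of a group biological replicates, but do not say whether they were separate cultures, so a p-value here weighs a difference against library-to-library spread, which may be technical.

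Cells run protein synthesis in the cytosol and, separately, in the mitochondrial matrix, and each compartment needs charged tRNAs. Every synthetase is encoded in the nucleus and translated in the cytosol, and the mitochondrial enzymes are imported afterwards, so a synthetase mRNA of either class is not itself a matrix RNA. Most amino acids have one gene for each compartment. GARS1 and KARS1 make both forms of the glycine and lysine enzymes, and mitochondria make glutaminyl-tRNA by amidating a tRNA first charged with glutamate. Several cytosolic enzymes are held together with scaffold proteins in the multisynthetase complex, and many cytosolic synthetase genes are known targets of ATF4, the transcription factor of the amino acid response.

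The 2 labelled libraries held 9380258 and 12287451 assigned fragments, against 8172347 and 5771795 in the 2 unlabelled libraries. The 35 genes took 34466 and 42991 of these fragments in labelled libraries and 35996 and 23233 in unlabelled libraries, or 0.367% and 0.350% against 0.440% and 0.403% of the assigned fragments. Genes of the mitochondrial genome took 27.0% and 30.9% in labelled libraries, against 9.04% and 10.4% in unlabelled libraries. Of nuclear fragments alone the synthetase share was 0.503% and 0.506% in labelled libraries, against 0.484% and 0.449% in unlabelled libraries. Levels below are therefore given as counts per 1000000 (CPM) after trimmed-mean scaling (TMM), which sets most genes level between libraries. As to identity, 8 markers of HEK293T cells were looked at. PAX2 and VIM reached 8.90 to 13.6 CPM and 179 to 216 CPM over the 4 libraries. KRT18, KRT8 and NEFL had 20.4 to 27.8, 6.34 to 9.02 and 4.38 to 6.35 CPM. The remaining HEK293T markers were low, with LHX1 at 1.06 to 2.68, NEFM at 0.445 to 2.50 and CD24 at 1.21 to 1.75 CPM. Of 8 markers of blood cells, fibroblasts and endothelium, CD3E, HBB and COL1A2 had no fragment in any library. PTPRC, PECAM1 and VWF reached at most 0.453 CPM. The other two, CD74 and COL1A1, were present at 8.02 to 13.1 CPM and 11.8 to 20.5 CPM, and their part in the results was not tested. In bulk RNA, fewer cells with a transcript and less transcript per cell cannot be told apart. Because the material was enriched, a transcript's level in cells and how much of it was captured cannot be told apart either. Wording such as higher in labelled cells therefore refers to the libraries made from those cells.

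None of the 35 synthetase genes differed between labelled and unlabelled cells at an adjusted p under 0.05, either by edgeR's quasi-likelihood test or by DESeq2. Over all genes, edgeR called 0.285% at that threshold (0.269% higher and 0.0158% lower in labelled cells), and DESeq2 called 0.402% higher and 0.109% lower. At an unadjusted p under 0.05, which 11.5% of all genes had, 6 synthetase genes were higher in labelled cells (FARSA, SARS1, NARS1, TARS1, CARS1 and HARS2), where 5.67% of all genes were, and 1 was lower (SARS2), where 5.88% of all genes were. The adjusted p of the 35 genes ran from 0.303 to 0.984, and the standard error of the log2 fold change from 0.12 to 0.34.

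Counted by library instead, 16 of the 35 genes were higher in both labelled libraries than in either unlabelled library, 8 were lower in both, and 11 overlapped. Over all genes tested, 22.2% were higher in both and 22.4% were lower in both. The cytosolic class had 10 higher, 3 lower and 6 overlapping genes, whereas the mitochondrial class had 6, 5 and 5. The log2 fold change was above 0 for 13 of 19 cytosolic and 7 of 16 mitochondrial genes, against 48% of all genes. Its median was 0.22 over the cytosolic class (−0.14 when scaled by library size alone) and −0.06 over the mitochondrial class (−0.42 when scaled by library size alone), against −0.01 over all genes (−0.37 when scaled by library size alone). With library size alone as the scale, 7 genes passed as lower in labelled cells (IARS1, QARS1, VARS1, EARS2, LARS2, RARS2 and SARS2), where 14.1% of all genes were lower and 0.364% higher. With all 4 libraries on the TMM scale, the cytosolic median lay above that of all genes and the mitochondrial median below it. No single gene of either class passed the test. Without unlabelled replicate 1 the mitochondrial median did not lie below, at 0.036 against 0.025 over all genes.

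**Figure D1:**
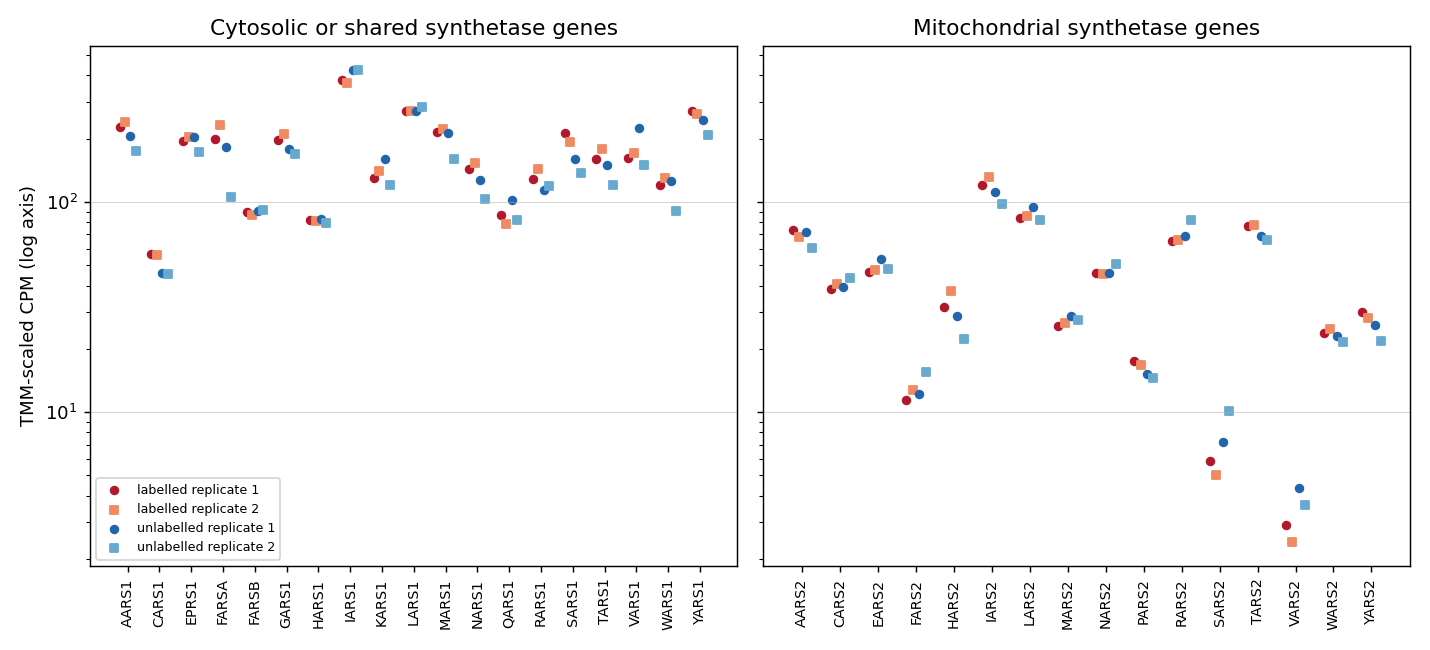
TMM-scaled CPM on a log axis for each of the 35 synthetase genes, with 1 point for each labelled (red, orange) and unlabelled (dark and light blue) library. Cytosolic or shared genes run from 45.4 to 426 CPM and mitochondrial genes from 2.40 to 131 CPM, and the labelled points lie close to the unlabelled ones except at genes such as FARSA, SARS1, HARS2 and SARS2.

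Among the cytosolic enzymes, FARSA stood farthest from 0. It encodes the catalytic subunit of the phenylalanine enzyme (chr19:12922479-12934037, minus strand, GRCh38). FARSA had 199 and 231 CPM in labelled libraries, against 182 and 106 CPM in unlabelled libraries. Both labelled libraries were above both unlabelled ones, but the unlabelled libraries differed from each other by more than the labelled ones did, and the low value belonged to unlabelled replicate 2. The log2 fold change was 0.58 ± 0.21 (SE, n = 2 per group; adjusted p = 0.336, edgeR), and it was 1.05 without unlabelled replicate 1 and 0.25 without unlabelled replicate 2. With no filter on low counts FARSA passed the threshold, at 0.60. FARSB, the partner subunit of the same enzyme, did not share this pattern, with 89.7 and 86.2 CPM in labelled libraries, against 90.8 and 91.9 CPM in unlabelled libraries.

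SARS1, the serine enzyme, which also charges the tRNA on which selenocysteine is made (chr1:109213918-109238182, plus strand), had 212 and 193 CPM in labelled libraries, against 160.1 and 137 CPM in unlabelled libraries. The groups did not overlap, and the log2 fold change was 0.45 ± 0.14 (SE, n = 2 per group; adjusted p = 0.303, edgeR), the smallest adjusted p among the 35 genes. The log2 fold change of SARS1 was 0.60 without unlabelled replicate 1 and 0.34 without unlabelled replicate 2, each a fit with a single unlabelled library. NARS1, the asparagine enzyme, had 143 and 153 CPM in labelled libraries, against 127 and 104 CPM in unlabelled libraries. TARS1, the threonine enzyme, had 159.8 and 179 CPM in labelled libraries, against 149.7 and 120.3 CPM in unlabelled libraries. Their log2 fold changes were 0.36 ± 0.14 and 0.32 ± 0.15 (SE, n = 2 per group), with adjusted p of 0.381 and 0.426 by edgeR, and for both genes the lowest library was again unlabelled replicate 2.

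CARS1, the cysteine enzyme, had the tightest replicates of these genes. It had 56.3 and 56.0 CPM in labelled libraries, against 45.8 and 45.4 CPM in unlabelled libraries, a log2 fold change of 0.30 ± 0.12 (SE, n = 2 per group; adjusted p = 0.390, edgeR). Leaving out either unlabelled library moved that value little, to 0.34 without replicate 1 and 0.30 without replicate 2. AARS1, the alanine enzyme, had 227 and 241 CPM in labelled libraries, against 206 and 174 CPM in unlabelled libraries. GARS1, which supplies glycyl-tRNA to both compartments, had 197 and 209 CPM in labelled libraries, against 179 and 169 CPM in unlabelled libraries. Their groups did not overlap either, with log2 fold changes of 0.30 and 0.22.

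At the other end of the cytosolic class stood IARS1, the isoleucine enzyme (chr9:92210207-92293854, minus strand). It had 381 and 369.6 CPM in labelled libraries, against 426 and 425 CPM in unlabelled libraries. Both labelled libraries were below both unlabelled ones by a margin larger than the spread within either group, and the log2 fold change was −0.18 ± 0.15 (SE, n = 2 per group; adjusted p = 0.651, edgeR). VARS1, the valine enzyme, had 161 and 172 CPM in labelled libraries, against 225 and 151 CPM in unlabelled libraries, and QARS1, the glutamine enzyme, had 86.9 and 78.4 CPM, against 102 and 81.8 CPM. Here the groups overlapped, and the high value was unlabelled replicate 1. HARS1, the histidine enzyme, was nearly level over the 4 libraries, with 81.9 and 81.4 CPM in labelled libraries, against 82.5 and 79.5 CPM in unlabelled libraries.

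The 7 genes whose enzymes sit in the multisynthetase complex (EPRS1, IARS1, KARS1, LARS1, MARS1, QARS1 and RARS1) had a median log2 fold change of −0.04 (−0.40 when scaled by library size alone), with 3 above 0. The other 12 cytosolic genes had a median of 0.26 (−0.09 when scaled by library size alone), with 10 above 0. RARS1, the arginine enzyme of the complex, had 128 and 144 CPM in labelled libraries, against 114 and 119.6 CPM in unlabelled libraries. LARS1, the leucine enzyme, had 269 and 272 CPM in labelled libraries, against 272 and 284 CPM in unlabelled libraries. None of the 7 reached an unadjusted p under 0.05, whereas 5 of the other 12 did, all higher in labelled cells, where 5.67% of all genes were, and whether the 2 groups of genes differ was not tested. By catalytic fold, which divides all synthetases into classes I and II, the cytosolic medians were 0.21 for 9 class I genes and 0.30 for 9 class II genes (−0.15 and −0.06 when scaled by library size alone), with EPRS1, which holds one of each, left out.

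**Figure D2:**
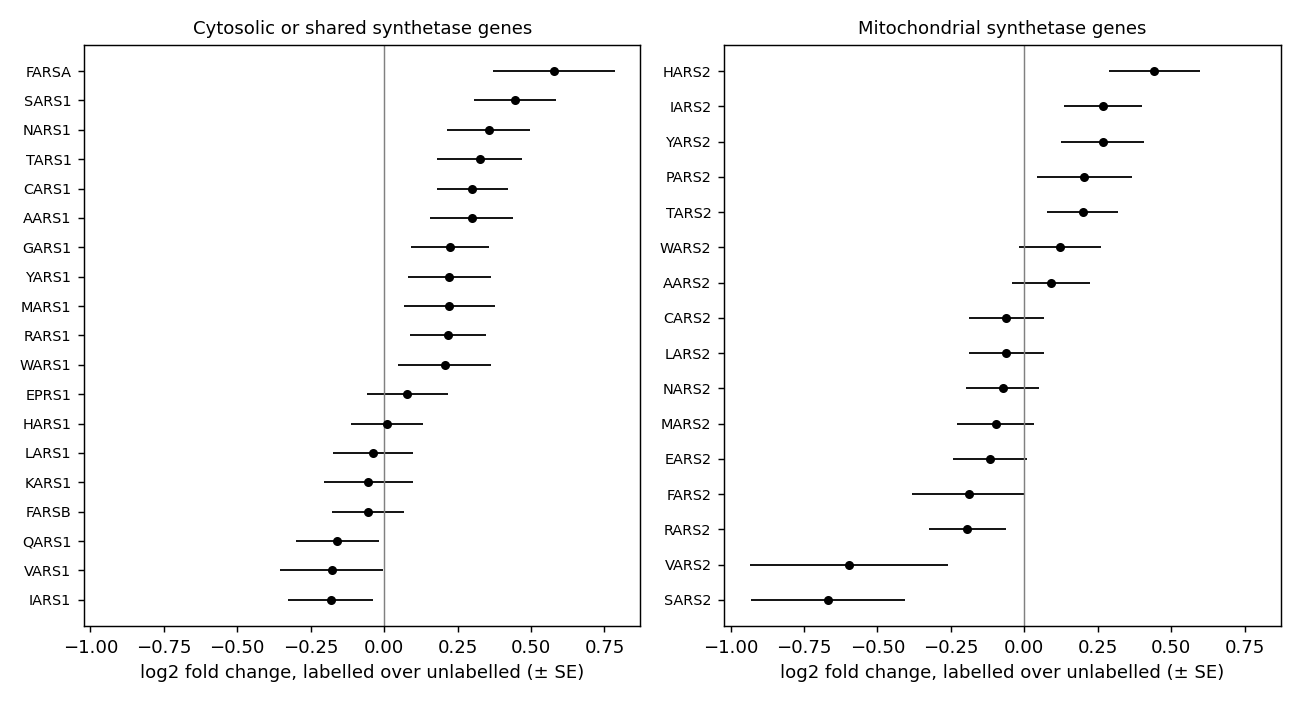
Log2 fold change of each synthetase gene, labelled over unlabelled, on the TMM scale, with bars for its standard error (n = 2 per group), cytosolic or shared genes in one panel and mitochondrial genes in the other. FARSA at 0.58, SARS1 at 0.45 and HARS2 at 0.44 lie highest, SARS2 at −0.67 and VARS2 at −0.60 lowest, and with library size alone 16 of the 20 positive values turn negative.

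Of the mitochondrial enzymes, HARS2 was the one gene above 0 at an unadjusted p under 0.05. HARS2 charges the mitochondrial histidine tRNA (chr5:140691430-140699305, plus strand). It had 31.6 and 37.8 CPM in labelled libraries, against 28.5 and 22.3 CPM in unlabelled libraries. The groups did not overlap, the replicates of each group were well apart, and the log2 fold change was 0.44 ± 0.16 (SE, n = 2 per group; adjusted p = 0.330, edgeR). IARS2, the isoleucine enzyme, had 119.8 and 131 CPM in labelled libraries, against 111 and 97.3 CPM in unlabelled libraries. TARS2, the threonine enzyme, had 76.7 and 77.2 CPM in labelled libraries, against 68.5 and 65.6 CPM in unlabelled libraries. Their log2 fold changes were 0.27 ± 0.13 and 0.20 ± 0.12 (SE, n = 2 per group), with adjusted p of 0.464 and 0.552 by edgeR.

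SARS2 and VARS2 had the lowest fold changes and also the lowest counts. SARS2, the serine enzyme (chr19:38915266-38930763, minus strand), had 5.83 and 5.00 CPM in labelled libraries, against 7.24 and 10.1 CPM in unlabelled libraries, which are 50 and 52 fragments against 65 and 67. Both labelled libraries were below both unlabelled ones, with a log2 fold change of −0.67 ± 0.26 (SE, n = 2 per group; adjusted p = 0.381, edgeR), and −0.42 without unlabelled replicate 2. VARS2, the valine enzyme (chr6:30914205-30926459, plus strand), had 2.92 and 2.40 CPM in labelled libraries, against 4.34 and 3.62 CPM in unlabelled libraries. That is 25 and 25 fragments, against 39 and 24, and the log2 fold change of −0.60 ± 0.34 had an adjusted p of 0.520 (edgeR, n = 2 per group). These genes also shared the most exon sequence with other annotated genes: 63.0% of the exon bases of VARS2 and 48.2% of those of SARS2 lie in exons of another gene. Fragments there are ambiguous under the authors' counting and stay unassigned, so both levels are uncertain.

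RARS2 and FARS2 came next from below. RARS2, the arginine enzyme, had 65.3 and 66.1 CPM in labelled libraries, against 68.7 and 81.9 CPM in unlabelled libraries. FARS2, the phenylalanine enzyme, a single chain in mitochondria, had 11.4 and 12.7 CPM in labelled libraries, against 12.3 and 15.5 CPM in unlabelled libraries. Both had a log2 fold change of −0.19, and in both the high value was unlabelled replicate 2. AARS2, the alanine enzyme, overlapped between the groups, with 73.6 and 67.8 CPM in labelled libraries, against 71.9 and 60.5 CPM in unlabelled libraries.

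Setting the mitochondrial gene of an amino acid against its cytosolic partner within each library removes the scaling, because both genes are counted in the same library. Of 17 such pairs, the log2 ratio of mitochondrial over cytosolic gene (with 2 fragments added as a prior) was lower in labelled libraries for 13 pairs and higher for 4, with a median difference of −0.20. Between 2 and 2 libraries the exact two-sided permutation test cannot go below p = 0.33, which 12 pairs reached. A pair reaches it whenever its groups do not overlap. Of single genes tested, 22.2% were higher in both labelled libraries and 22.4% lower in both. EPRS1 and FARS2 each stand in more than 1 pair, so the pairs are not all independent. After adjustment over the 17 pairs p ran from 0.472 to 1. The 2 genes of a pair had log2 fold changes of the same sign in 9 of 17 pairs. Without unlabelled replicate 2 the ratio was lower in labelled libraries for 11 pairs (median −0.16), and without unlabelled replicate 1 for 12 (median −0.30).

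The serine pair moved farthest. The log2 ratio of SARS2 over SARS1 was −5.13 and −5.21 in labelled libraries, against −4.42 and −3.73 in unlabelled libraries, a difference of −1.09. For phenylalanine, FARS2 over FARSA was −4.10 and −4.16 in labelled libraries, against −3.86 and −2.75 in unlabelled libraries, a difference of −0.82, with unlabelled replicate 2 well apart from the other 3 libraries. The cysteine pair had close replicates, with CARS2 over CARS1 at −0.54 and −0.45 in labelled libraries, against −0.21 and −0.06 in unlabelled libraries.

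Histidine and isoleucine went the other way. HARS2 over HARS1 was −1.37 and −1.10 in labelled libraries, against −1.53 and −1.82 in unlabelled libraries, a difference of 0.44. IARS2 over IARS1 was −1.67 and −1.49 in labelled libraries, against −1.93 and −2.12 in unlabelled libraries, a difference of 0.45 and the highest of the 17. In both pairs the groups did not overlap. The 2 histidine genes lie head to head on chromosome 5, with RefSeq start sites 84 bases apart on opposite strands. Parts of their exons overlap (8.46% of the exon bases of HARS1 and 6.99% of those of HARS2 lie in exons of other genes), and because fragments were counted without strand, fragments in those parts stay unassigned.

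**Figure D3:**
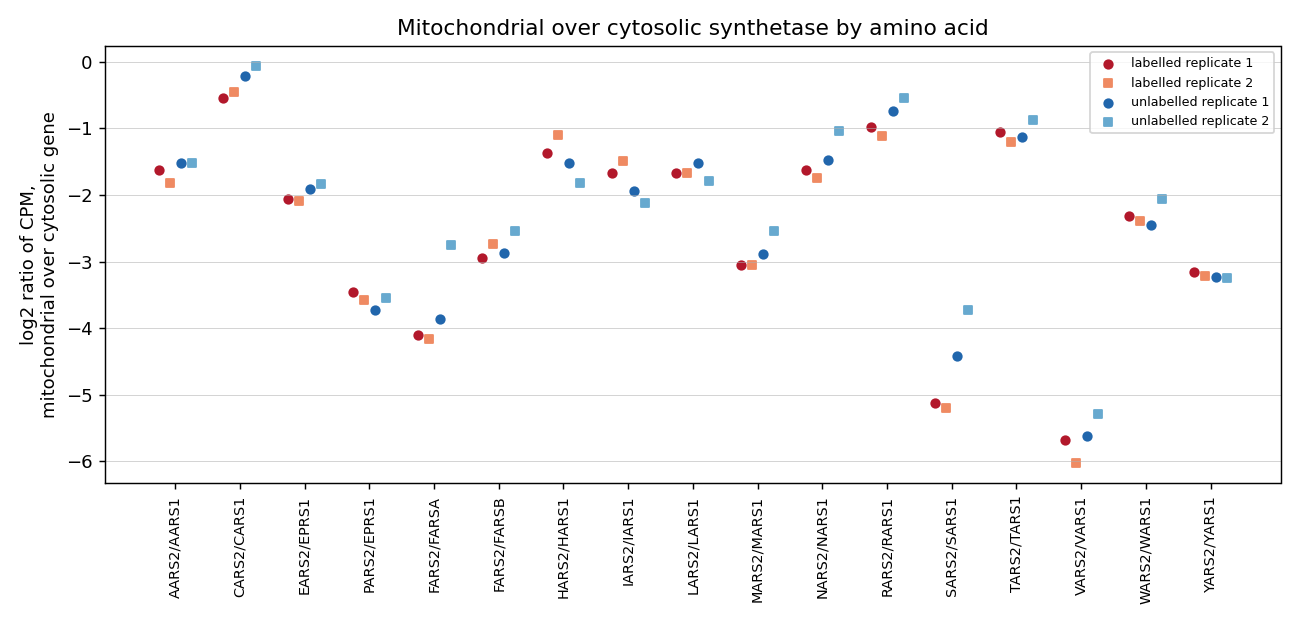
Log2 ratio of CPM of the mitochondrial over the cytosolic synthetase gene for 17 pairs, with 1 point for each labelled (red, orange) and unlabelled (dark and light blue) library. Labelled points lie lower than unlabelled ones in SARS2/SARS1 (−5.13 and −5.21 against −4.42 and −3.73) and higher in HARS2/HARS1 and IARS2/IARS1.

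Summed over the class, the cytosolic genes came to 3319 and 3420 CPM in labelled libraries (mean 3370 ± 71.0, SD, n = 2), against 3309.5 and 2839 CPM in unlabelled libraries (mean 3074 ± 333, SD, n = 2). The ratio of the means was 1.10, or 0.13 on the log2 scale (−0.22 when scaled by library size alone), and the gap between the 2 unlabelled libraries was larger than that between the group means. The mitochondrial genes summed to 699.5 and 716 CPM in labelled libraries, against 699 and 667 CPM in unlabelled libraries. They made up 17.4% and 17.3% of all synthetase CPM in labelled libraries, against 17.4% and 19.02% in unlabelled libraries. Unlabelled replicate 2 was the lowest library in both sums, by a wider margin in the cytosolic one.

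That library held the lowest CPM of the 4 for 14 of 19 cytosolic genes (73.7%) and for 8 of 16 mitochondrial genes (50%), against 33.8% of all genes tested. It was also the shallowest, with 5771795 fragments. Without it, SARS1 was past the threshold as higher and QARS1 and VARS1 as lower in labelled cells (edgeR), where 2.06% of all genes were higher and 2.55% lower, and the cytosolic median was 0.04. Without unlabelled replicate 1 instead, 10 cytosolic genes (AARS1, CARS1, FARSA, GARS1, MARS1, NARS1, SARS1, TARS1, WARS1 and YARS1) and 3 mitochondrial ones (HARS2, IARS2 and YARS2) were higher and RARS2 and SARS2 were lower, where 11.6% of all genes were higher and 7.37% lower. The cytosolic median was then 0.30 and the mitochondrial median 0.036, against 0.025 over all genes. Without labelled replicate 1 or labelled replicate 2, no synthetase gene passed the threshold, where 0.367% and 0.236% of all genes were higher and 0.082% and 0.0434% lower, and the cytosolic medians were 0.27 and 0.16. In each of these fits 1 group is a single library, assumed to vary like the other group. On the TMM scale the cytosolic median was above 0 in these 4 fits, and its size depended on which unlabelled library was kept.

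**Figure D4:**
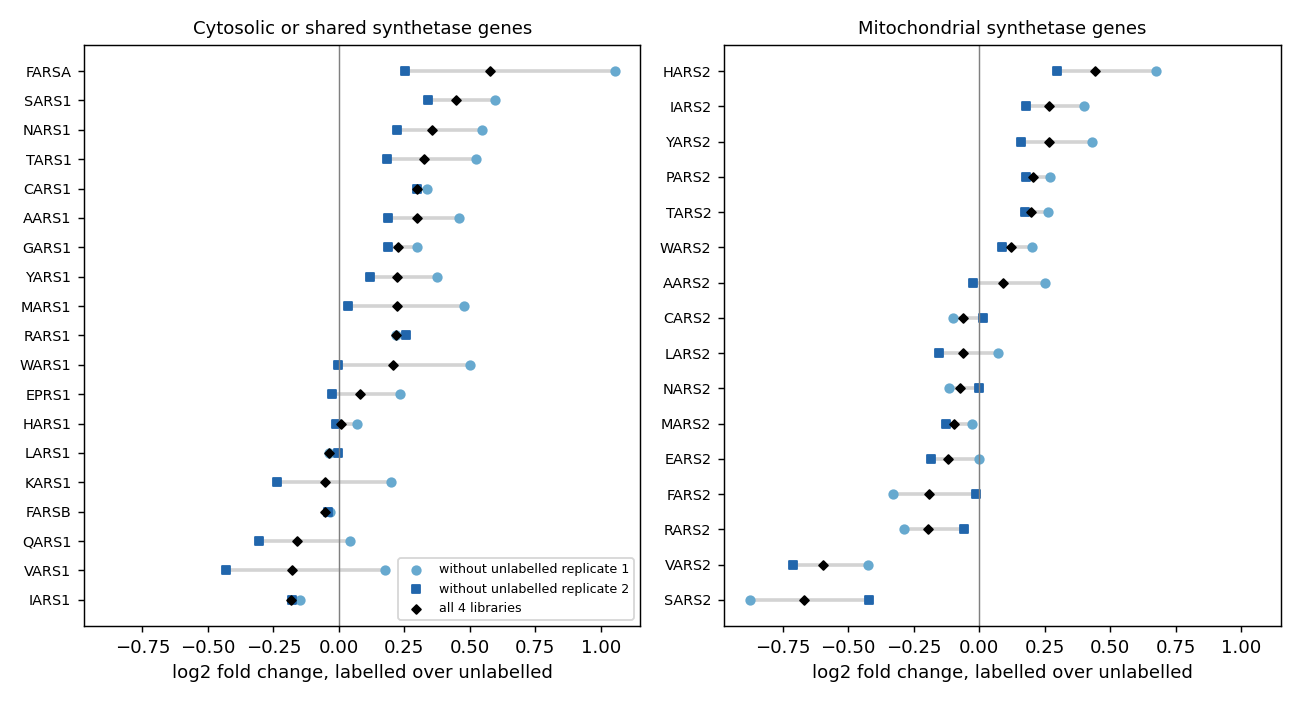
Log2 fold change of each synthetase gene, labelled over unlabelled, on the TMM scale, without unlabelled replicate 1 (light blue circles), without unlabelled replicate 2 (dark blue squares) and with all 4 libraries (black diamonds). FARSA spans 1.05 to 0.25 and SARS1 0.60 to 0.34, whereas CARS1 stays at 0.34 and 0.30.

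The CPM values above grow with transcript length, so levels between genes were compared as FPKM, the CPM divided by the merged exon length in kilobases. On this scale FARSA was highest, at 88.5 ± 9.28 FPKM in labelled and 59.1 ± 21.9 FPKM in unlabelled libraries (SD, n = 2). SARS1 followed at 52.6 ± 3.49 FPKM in labelled and 38.5 ± 4.33 FPKM in unlabelled libraries, and RARS1 at 39.8 ± 3.19 and 34.2 ± 1.09 FPKM (SD, n = 2). By merged exon length the lowest cytosolic levels were those of CARS1 (5.59 ± 0.02 FPKM in labelled and 4.54 ± 0.03 FPKM in unlabelled libraries), HARS1 (5.77 ± 0.02 and 5.72 ± 0.15 FPKM) and GARS1 (11.7 ± 0.49 and 10.0 ± 0.42 FPKM, SD, n = 2). Between neighbours in the order of levels, the 4-library ranges overlapped for 29 of 34 neighbouring pairs, so the order is coarse.

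Mitochondrial enzymes were mostly at the low end: 14 of the 17 lowest genes belonged to that class, and 9 of the 10 highest were cytosolic. IARS2 was the exception at rank 10, with 30.4 ± 2.01 FPKM in labelled and 25.2 ± 2.40 FPKM in unlabelled libraries (SD, n = 2). TARS2 had 19.2 ± 0.09 and 16.7 ± 0.50 FPKM, and AARS2 13.5 ± 0.78 and 12.6 ± 1.54 FPKM. The lowest of all were FARS2 (2.49 ± 0.19 FPKM in labelled and 2.87 ± 0.48 FPKM in unlabelled libraries), SARS2 (1.75 ± 0.19 and 2.80 ± 0.66 FPKM) and VARS2 (0.41 ± 0.06 and 0.62 ± 0.08 FPKM, SD, n = 2). The class medians were 27.4 and 26.6 FPKM in labelled, against 25.1 and 21.4 FPKM in unlabelled libraries for cytosolic genes, and 6.71 and 6.84 against 7.02 and 6.08 FPKM for mitochondrial genes.

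Within a pair of the same amino acid, the mitochondrial gene had the lower FPKM in 15 of 17 pairs, with IARS2 over IARS1 (ratio 1.56) and HARS2 over HARS1 (ratio 1.41) as the exceptions. Merged exons of a gene can be far longer than its main transcript. With the length of the GENCODE 29 transcript with the longest coding sequence instead, an alternative chosen after seeing the data, the mitochondrial gene was lower in 16 of 17 pairs. Both exceptions above turned (IARS2 over IARS1 to a ratio of 0.376 and HARS2 over HARS1 to 0.382), and CARS2 over CARS1, at 1.17, became the exception. SARS1 and FARSA then took ranks 1 and 2 and IARS1 rank 3, against rank 16 by merged exons. GARS1 moved to rank 5 and HARS1 to rank 17 of the 35 genes. On that length the only cytosolic genes below HARS1 were QARS1 (rank 19), FARSB (rank 21) and CARS1 (rank 25).

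Because ATF4 is known to act on synthetase genes through a composite element, the core TGATGNAA was searched on both strands of RefSeq promoters (GRCh38.p14, 250 bases before to 50 after each start). Windows were found for 30 of the 35 genes, without LARS1, VARS1, YARS1, AARS2 and VARS2. The core occurred in 8 of the 30 (26.7%), against 4.46% of 27305 genes, and in 7 of 16 cytosolic genes (43.8%) but 1 of 14 mitochondrial genes (7.14%). The 8 matches are shown because the frequency of the core is compared between the classes, 7 from cytosolic genes and 1 (YARS2) from a mitochondrial gene, each read on the strand that carries the core, which stands in capitals.
AARS1, chr16:70289675-70289704, plus strand: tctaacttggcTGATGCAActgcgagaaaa
CARS1, chr11:3057407-3057436, plus strand: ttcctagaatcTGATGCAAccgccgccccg
GARS1, chr7:30594834-30594863, minus strand: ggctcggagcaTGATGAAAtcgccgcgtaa
IARS1, chr9:92293692-92293721, plus strand: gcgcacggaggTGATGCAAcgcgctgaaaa
MARS1, chr12:57488053-57488082, minus strand: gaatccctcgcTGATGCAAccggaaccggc
NARS1, chr18:57621804-57621833, minus strand: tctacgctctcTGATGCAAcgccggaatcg
TARS1, chr5:33440956-33440985, minus strand: gctggaccagcTGATGCAAtcgaaaggcgc
YARS2, chr12:32756076-32756105, minus strand: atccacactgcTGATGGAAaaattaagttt

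In all but 2 of the 8 genes the variable base of the core is C. The core lay within 33 bases of the RefSeq start in 6 of them, and 187 and 197 bases upstream of it in AARS1 and YARS2. The gene bounds used for counting can reach farther, and the AARS1 match lies inside them (end at 70289707). A match describes letters in a window and is not evidence that ATF4 binds there. The 7 cytosolic genes with the core had a median log2 fold change of 0.30 (−0.06 when scaled by library size alone), with 6 higher in both labelled libraries and 1, IARS1, lower in both, where 22.2% and 22.4% of all genes were. The 9 cytosolic genes with a window but no core had a median of 0.08 (−0.27 when scaled by library size alone), with 3 higher in both, 1 lower in both and 5 overlapping, and FARSA and SARS1, which had the largest fold changes of the class, were among these 9. The difference between these small groups was not tested. Another core, that of NRF1 (GCGCA, any base, GCGC), a regulator of nuclear genes for mitochondrial proteins, occurred in 6 of 30 synthetase genes (FARSB, SARS1, TARS1, IARS2, MARS2 and PARS2; 20%), against 6.98% of all genes. It was found in 3 of 16 cytosolic (18.8%) and 3 of 14 mitochondrial genes (21.4%), so the ATF4 core differed more in frequency between the classes than the NRF1 core did. No match of the one core overlapped a match of the other.

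Other targets of the amino acid response were looked at alongside, in a list chosen with earlier results of these data known. None of the 12 genes of that list passed an adjusted p of 0.05, but 11 were higher in both labelled libraries than in either unlabelled library, where 22.2% of all genes were, and 6 were higher at an unadjusted p under 0.05, where 5.67% of all genes were. The median log2 fold change was 0.36, and 0.00 when scaled by library size alone, against −0.01 and −0.37 over all genes. CHAC1, which degrades glutathione, had 17.3 and 16.4 CPM in labelled libraries, against 11.02 and 9.51 CPM in unlabelled libraries. TRIB3, a pseudokinase that restrains the pathway, had 51.1 and 44.5 CPM in labelled libraries, against 36.3 and 27.5 CPM in unlabelled libraries. ATF3, a transcription factor induced by stress, had 23.1 and 22.5 CPM in labelled libraries, against 14.6 and 16.6 CPM in unlabelled libraries. Their log2 fold changes were 0.70, 0.57 and 0.55, with adjusted p of 0.211, 0.228 and 0.255 (edgeR, n = 2 per group). ATF4 itself had 814 and 1103 CPM in labelled libraries, against 798 and 613 CPM in unlabelled libraries (adjusted p = 0.442, edgeR). Without unlabelled replicate 2 the list median was 0.28, and without unlabelled replicate 1 it was 0.55. Promoter windows were found for 11 genes of this list, and only 3 of these (27.3%) held the ATF4 core. A window without the core is therefore no sign that a gene is outside the response.

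**Figure D5:**
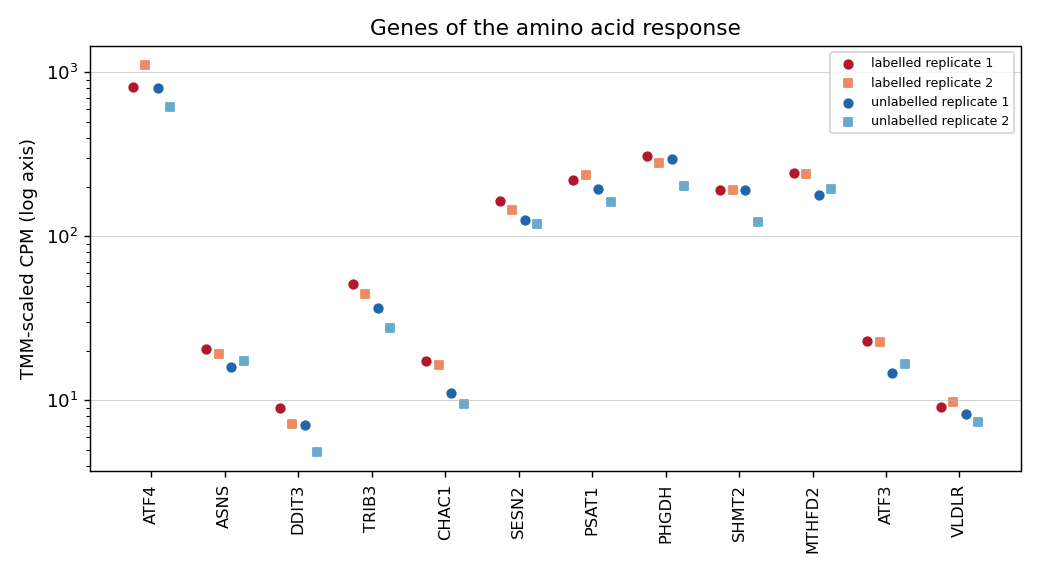
TMM-scaled CPM on a log axis for the 12 genes of the amino acid response list, with 1 point for each labelled (red, orange) and unlabelled (dark and light blue) library. The labelled points of CHAC1, TRIB3 and ATF3 lie above the unlabelled ones on this scale, as do those of 11 of the 12 genes, and none passed an adjusted p of 0.05.

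In the lists of genes that work with the synthetases, 0 members passed an adjusted p of 0.05 in each, by edgeR and by DESeq2. Over all genes, edgeR called 0.285%, and DESeq2 called 0.402% higher and 0.109% lower in labelled cells. The list medians below are on the TMM scale. With library size alone those of these 6 lists were all negative, from −0.38 to −0.09, against −0.37 over all genes. Of the 3 scaffold genes of the multisynthetase complex, AIMP2 had the largest log2 fold change, 0.45 (adjusted p = 0.334, edgeR), whereas AIMP1 and EEF1E1 had 0.03 and 0.01. Among the 4 genes that finish charged mitochondrial tRNAs, MTFMT, which formylates the initiator methionyl-tRNA, had 0.44 (adjusted p = 0.371), and GATB and GATC, subunits of the amidating enzyme, had 0.10 and −0.12. AIMP2 and MTFMT were each higher in labelled cells at an unadjusted p under 0.05 (edgeR), where 5.67% of all genes were. Both were higher in both labelled libraries than in either unlabelled library, where 22.2% of all genes were.

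The quality control list held 6 genes with a median log2 fold change of −0.02, with DTD2 at 0.51 and PTRHD1 at −0.25. DTD1, a deacylase that takes D-amino acids off tRNAs, had 17.3 and 15.7 CPM in labelled libraries, against 17.7 and 17.2 CPM in unlabelled libraries. DTD2, a relative of DTD1, had 6.76 and 7.41 CPM in labelled libraries, against 5.23 and 4.68 CPM in unlabelled libraries (adjusted p = 0.470, edgeR). The groups overlapped for DTD1 and did not for DTD2.

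Selenocysteine synthesis had a median of 0.26 over 4 genes, with SEPHS2 at 0.28, EEFSEC at 0.32 and PSTK at −0.23. The 10 tRNA maturation genes had a median of 0.03, with TRMU, which adds sulfur to a uridine of mitochondrial tRNAs, at −0.25, RTCB, the tRNA ligase, at 0.30, and PUS1, a pseudouridine synthase, at 0.21. Of 6 genes that deliver charged tRNAs to the ribosome, 5 were tested, with a median of −0.03. EEF1D, a subunit of the exchange factor of the cytosolic elongation factor, was lower in both labelled libraries, with 108 and 97.1 CPM in labelled libraries, against 128 and 161 CPM in unlabelled libraries (log2 fold change −0.49, adjusted p = 0.284, edgeR), while EEF1B2 had 0.11 and TUFM, the mitochondrial elongation factor, had 0.23.

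The tRNAs that the mitochondrial enzymes charge are themselves made in the matrix, and their values are given beside those of the enzymes. Of 18 mitochondrial tRNA genes with an enzyme among the 16, 16 were tested, and 15 of these passed the threshold as higher in labelled cells (edgeR), where 0.269% of all genes were. Over the 16 tested tRNA genes the log2 fold changes ran from 1.63 to 3.38 with a median of 2.06, whereas those of the enzymes ran from −0.67 to 0.44. For serine, the tRNA genes MT-TS1 and MT-TS2 had 2.13 and 2.58. SARS2, the lowest of the enzymes, had −0.67, from 50 to 67 fragments in a library. For histidine, MT-TH had 1.99 and HARS2 had 0.44. Of the 16 enzymes, 7 had a log2 fold change above 0.

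Sequence shared with other genes limits some of these levels. Of the 35 genes, 22 had exon bases in common with another annotated gene, 18 of them with a gene on the opposite strand and 8 with one on the same strand. Besides VARS2 and SARS2, the shares were 18.1% in YARS2, 13.3% in MARS1, 10.6% in WARS1 and less elsewhere, and the median was 1.03%. Annotated pseudogenes named after the 35 genes took little: 11 of 14 had no fragment in any library, and all 14 held 58 fragments, against 136686 in the synthetase genes.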

How the data were processed

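RNA of 4 HEK293T libraries was measured (total RNA per the labels, depleted of ribosomal RNA, and enriched per the design text), with groups and numbers read from the titles. The deposited file gives raw fragment counts for every gene. Per the file headers the authors counted with featureCounts 1.6.4 against GENCODE 44: both mates had to map, chimeric pairs were dropped, exons were added up per gene, and neither strand nor multi-mapping was switched on. Fragments that touch exons of more than 1 gene, on either strand, are therefore left out. The submitters' processing notes name STAR 2.7.9a, GRCh38 and DESeq2 1.42.0. A second deposited file, with counts by assignment status, was not used for the tests. Gene coordinates come from the count file and those of promoter matches from the RefSeq windows, and all start at 1.

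The main test was the quasi-likelihood test of edgeR 4.0.16 (R 4.3.3) on these counts, after filterByExpr and TMM scaling, in 1 fit of the 4 libraries without a block, with Benjamini-Hochberg adjustment (18973 genes, threshold 0.05). A standard error here is the size of the log2 fold change over the root of F. The procedure was first tried on simulated data. Pair ratios were put to an exact permutation test, two-sided, in Python 3.11.15 (6 arrangements). A count of 3 fragments equals 0.350 and 0.289 CPM (TMM-scaled) in labelled libraries, and 0.334 and 0.453 CPM in unlabelled libraries, a floor for counting error alone, since fragments are not tagged molecules.

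The synthetase genes and the other gene lists were chosen with earlier results of these data known. Full values were given for genes with an unadjusted p under 0.05, the 5 largest and 5 smallest log2 fold changes and the 3 highest and 3 lowest levels per length of each class, and for the 3 smallest p of each further list; other genes named with values were chosen after those were seen. The values of 1 gene that this rule named are not reported here. Replicate numbers are shared between the groups, but nothing in the labels says that a number marks a shared culture or day, so libraries were not paired. Alternatives were scaling by library size alone, by nuclear genes or by relative log expression, other filters, DESeq2, a replicate block and leaving out each library in turn. Xenograft tumours, which the design text mentions, are not analysed here.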

Additional observations from a re-analysis of the deposited data

How the results depend on the processing

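All 35 synthetase genes kept their direction and their side of the threshold with DESeq2, relative log expression factors, nuclear-gene scaling and a minimum of 1 CPM in 2 libraries. Of all genes, 54 passed as reported, 30 with nuclear-gene scaling, 302 without a filter on low counts, 2744 with library size alone, and 58 to 3985 when 1 library was left out. Of the 35 genes, 0 passed as reported, 7 with library size alone (all lower), 1 (FARSA) without a filter and 0 to 15 when 1 library was left out. With the replicate block, 236 genes passed, FARSA as the 1 synthetase gene among them, and the cytosolic and mitochondrial medians were 0.22 and −0.06. Same-numbered libraries deviated with r = −0.10 over 12656 genes of at least 5 CPM, across genes and with 2 pairs, and with the numbers crossed, an alternative chosen after seeing the data, 376 genes and 1 synthetase gene passed.

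With library size alone the median of all genes was −0.37, the cytosolic median −0.14, the mitochondrial median −0.42, and the log2 ratios of the summed levels −0.22 (cytosolic) and −0.30 (mitochondrial). There, 16 genes turned negative: AARS1 (−0.057), CARS1 (−0.055), EPRS1 (−0.27), GARS1 (−0.13), HARS1 (−0.34), MARS1 (−0.13), RARS1 (−0.14), TARS1 (−0.030), WARS1 (−0.15), YARS1 (−0.13), AARS2 (−0.26), IARS2 (−0.089), PARS2 (−0.15), TARS2 (−0.16), WARS2 (−0.23) and YARS2 (−0.085). The share of mitochondrial-genome fragments, which enters library size, differed between the groups (27.0% and 30.9% in labelled libraries, against 9.04% and 10.4% in unlabelled libraries); its part was not tested. Without a filter the mitochondrial median was −0.033.

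Leaving out 1 library at a time gave a cytosolic median of 0.036 to 0.30, a mitochondrial median of −0.054 to 0.036 and a log2 ratio of the summed cytosolic level of 0.026 to 0.25, with the highest values without unlabelled replicate 1. Genes whose sign turned in at least 1 of these fits were KARS1 (−0.23 to 0.20), QARS1 (−0.31 to 0.043), VARS1 (−0.43 to 0.18), EPRS1 (−0.027 to 0.23), HARS1 (−0.011 to 0.068), WARS1 (−0.0031 to 0.50), LARS2 (−0.15 to 0.074), AARS2 (−0.022 to 0.25) and CARS2 (−0.10 to 0.015). Pairs whose difference turned were FARS2 over FARSB (−0.30 to 0.022), LARS2 over LARS1 (−0.15 to 0.11) and WARS2 over WARS1 (−0.30 to 0.090). In each, the cause was not tested. Depth limits SARS2 and VARS2 most, with 24 to 67 fragments in a library.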
